A study of Mus musculus with 2 samples.

Results

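Glycolysis and the transcriptional response to hypoxia were examined through 37 genes in mouse embryonic stem cells after an siRNA against Set1a. The genes were chosen by symbol: 26 encode glycolytic enzymes, their transporters or kinases that set glycolytic flux, 10 are targets of the hypoxia-inducible factors (HIF) with other roles, and the last is Hif1a itself. All 37 were found among the 22421 genes of the deposited tables, each represented by its listed RefSeq transcript with the highest summed value. RNA-seq libraries came from CGR8 cells, a mouse embryonic stem cell line grown without feeder cells on gelatin in serum with leukaemia inhibitory factor. The Set1a siRNA group and the negative control siRNA group held 1 library each, both labelled with a transfection time of 72 hours and both transfected 2 times. The siRNA sequences were not used here. Set1a, whose symbol in the tables is Setd1a, codes for an enzyme that methylates lysine 4 of histone H3. The comparison asked how an siRNA against Set1a affects expression.

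Glycolysis splits glucose into pyruvate in the cytosol, and lactate dehydrogenase turns pyruvate into lactate while restoring the cofactor that the pathway consumes. Pluripotent stem cells are known for high glycolytic activity. When oxygen is present, prolyl hydroxylases of the Egln family mark the HIF alpha subunits for destruction through the von Hippel-Lindau protein. When oxygen is scarce, the stabilised alpha subunit pairs with Arnt and binds DNA at short sites with a CGTG core near genes of glucose uptake, glycolysis, collagen modification, mitophagy and vessel growth. The amount of HIF protein is set largely after translation, so the RNA of Hif1a does not report it.

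Levels are in RPKM, read numbers corrected for transcript length and for depth, and the depths recovered from the values were about 6420000 reads for the Set1a siRNA library and 6645000 reads for the control siRNA library. Ratios are Set1a siRNA over control siRNA RPKM, with an exact Clopper-Pearson 95% interval that covers counting error only. As each group is 1 library, differences have no replicate check and are given without p-values. A size rule was applied to the 11802 genes whose mean reached a floor of 1 RPKM: a gene counted as higher at 25% or more above the control value and as lower at 20% or more below it, after 1 RPKM was added to each value. The added RPKM makes changes of low genes look smaller. Setd1a was at 11.97 RPKM in the Set1a siRNA library and 14.2 RPKM in the control siRNA library, a ratio of 0.846 (0.746 to 0.959). The RNA of the targeted gene was thus lower but short of the rule. Of 8 pluripotency markers, 0 passed the rule in either direction, against 10.4% of all genes higher and 8.14% lower. Their summed level was 4123 RPKM in the Set1a siRNA library and 4413 RPKM in the control siRNA library. Log2 folds lay above 0 for 4 of them and below 0 for 4. Ratios ran from 0.844 (0.817 to 0.872) for Dppa5a and 0.875 (0.835 to 0.917) for Sox2 to 1.09 (1.06 to 1.13) for Tdgf1. Of 16 markers of fibroblasts, primitive endoderm, trophectoderm, neural cells and mesoderm, none exceeded 5.35 RPKM in either library. Those past the rule, both higher, were Thy1, with a ratio of 1.59 (0.965 to 2.66), and Eomes, with a ratio of 1.48 (1.05 to 2.10). Col1a2 and Cdx2 were listed at 0 in both. The summed level of the fibroblast markers was 4.22 RPKM in the Set1a siRNA library and 2.52 RPKM in the control siRNA library, and that of the trophectoderm markers 9.12 RPKM and 7.29 RPKM in the same order. In such bulk samples more RNA per cell and more cells of a type cannot be told apart.

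Of the 37 genes, 35 had a mean of at least 1 RPKM. Both parts of the module were shifted upward in the Set1a siRNA library, the HIF targets outside glycolysis further than the glycolytic genes, although the difference between the 2 classes was not tested. Among the 25 glycolytic genes above the floor, 4 (16%) passed the rule as higher and 0 as lower, against 10.4% and 8.14% of all genes. Their median log2 fold was 0.19, against 0.0063 over all genes, and 20 of the 25 lay above 0, against 51.2% of all genes. In this setting the count past the rule was not far from the background, and the shift consisted mainly of many small differences in 1 direction. The background share depended on the setting. With a floor of 5 RPKM, 4 of 23 glycolytic genes were higher and 0 lower, against 6.62% and 6.12% of all genes. With 5 RPKM added in place of 1, these counts were 4 and 0 of 25, against 3.57% and 2.99% of all genes. Among the 9 HIF targets outside glycolysis above the floor of 1 RPKM, 5 (55.6%) passed as higher and 1 as lower, against 10.4% and 8.14% of all genes. Their median log2 fold was 0.49, and 8 of 9 lay above 0. At a stricter 1.5-fold rule, 2 glycolytic genes (Slc2a1 and Slc16a3) and 2 HIF targets (P4ha2 and Ndrg1) were higher and 0 of either class lower, against 2.77% and 1.75% of all genes. At 2-fold, P4ha2 alone was higher and 0 were lower, against 0.771% and 0.407% of all genes. Hif1a lay on the other side, at 19.0 RPKM in the Set1a siRNA library and 21.4 RPKM in the control siRNA library, a ratio of 0.890 (0.794 to 0.995).

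**Figure D1:**
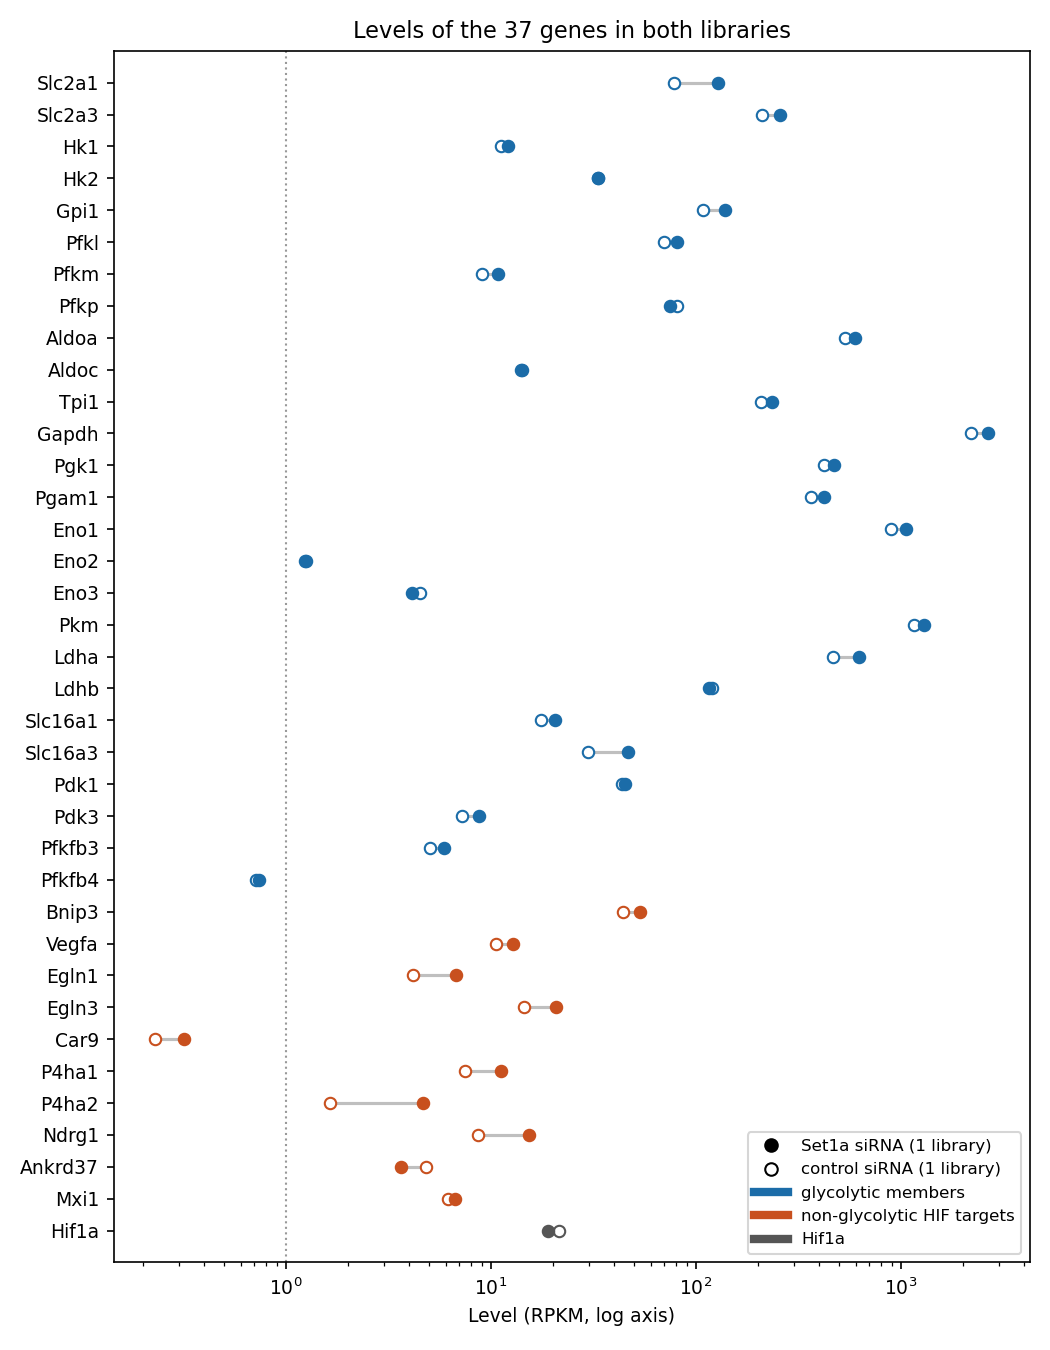
Level of each of the 37 genes in RPKM on a log axis, with filled points for the Set1a siRNA library, open points for the control siRNA library and a dotted line at the floor of 1 RPKM. Levels span from 0.230 RPKM for Car9 to 2659 RPKM for Gapdh, and the widest gaps belong to P4ha2, Ndrg1, Egln1, Slc2a1 and Slc16a3.

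Glucose enters the cell and lactate leaves it through carriers, of which Slc2a1 and Slc16a3 showed the widest differences of the glycolytic class. Slc2a1, which encodes the basal glucose transporter GLUT1, was at 127 RPKM in the Set1a siRNA library and 78.4 RPKM in the control siRNA library, a ratio of 1.62 (1.53 to 1.73). Only 203 of the 11802 genes (1.72%) had a higher fold. Slc2a3, for the high-affinity transporter GLUT3, was the more abundant of the pair in both libraries, at 256 RPKM in the Set1a siRNA library and 209 RPKM in the control siRNA library. Its ratio of 1.23 (1.18 to 1.27) was just short of the rule. The balance of the 2 transporters therefore differed: the Slc2a1 level was 0.497 of the Slc2a3 level in the Set1a siRNA library and 0.376 in the control siRNA library. The quotient of these was 1.32, with an exact interval of 1.23 to 1.42 from the reads.

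The monocarboxylate carriers showed a like difference. Slc16a3, for MCT4, which exports lactate from highly glycolytic cells, was at 46.7 RPKM in the Set1a siRNA library and 29.6 RPKM in the control siRNA library. Its ratio was 1.58 (1.4025 to 1.78), and all 3 of its listed transcripts had a ratio near this value, from 1.575 to 1.577; these transcripts share reads and are not separate measurements. Slc16a1, for MCT1, the more widely expressed carrier of lactate and pyruvate, was at 20.4 RPKM in the Set1a siRNA library and 17.4 RPKM in the control siRNA library, a ratio of 1.17 (1.04 to 1.32). Relative to Slc16a1, the level of Slc16a3 was 2.29 in the Set1a siRNA library and 1.70 in the control siRNA library, a quotient of 1.35 (1.14 to 1.598).

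In upper glycolysis, which spends ATP to make triose phosphates, 7 of 9 genes lay above 0, against 51.2% of all genes. Of these 9 genes, 1 (11.1%) passed the rule as higher and 0 as lower, against 10.4% and 8.14% of all genes. The hexokinases, which trap glucose in the cell by phosphorylation, were nearly level. Hk2 was at 33.3 RPKM in the Set1a siRNA library and 33.4 RPKM in the control siRNA library, a ratio of 0.995 (0.918 to 1.08), and Hk1 at 12.1 RPKM and 11.2 RPKM in the same order, a ratio of 1.08 (0.927 to 1.27). The balance of Hk1 to Hk2 had a quotient of 1.09 (0.912 to 1.30), an interval that included 1. Gpi1, for the isomerase that makes fructose 6-phosphate, was the member past the rule, at 138 RPKM in the Set1a siRNA library and 108 RPKM in the control siRNA library, with a ratio of 1.28 (1.21 to 1.36). With a trend in GC content and transcript length removed it no longer passed, and the antisense gene Gm26762 overlaps 12.3% of its transcript.

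Phosphofructokinase catalyses the committed step, and its 3 subunit genes did not move alike. Pfkl, the liver-type subunit, was at 80.5 RPKM in the Set1a siRNA library and 69.6 RPKM in the control siRNA library, a ratio of 1.16 (1.08 to 1.24). Pfkp, the platelet-type subunit, was at 74.3 RPKM in the Set1a siRNA library and 80.7 RPKM in the control siRNA library, a ratio of 0.920 (0.866 to 0.978). Pfkl was therefore the higher of the pair in the Set1a siRNA library and the lower in the control siRNA library, and the quotient of the 2 level ratios was 1.26 (1.15 to 1.38). Pfkm, the muscle-type subunit, was far lower, at 10.8 RPKM in the Set1a siRNA library and 9.02 RPKM in the control siRNA library, and the interval of its ratio included 1. Reads from the overlapping gene Pitrm1, annotated on the opposite strand over 18.1% of the Pfkp transcript, cannot be told apart from Pfkp reads, as the use of strand is not stated.

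Aldolase cleaves the hexose into triose phosphates. Aldoa, its main form here, was at 594 RPKM in the Set1a siRNA library and 536 RPKM in the control siRNA library, a ratio of 1.11 (1.07 to 1.15), while Aldoc was at 14.1 RPKM and 13.9 RPKM in the same order, with an interval of 0.803 to 1.27. Tpi1, which interconverts the triose phosphates, was at 234 RPKM in the Set1a siRNA library and 207 RPKM in the control siRNA library, a ratio of 1.13 (1.07 to 1.20). These 2 abundant enzymes thus differed by less than the size rule, with intervals that excluded 1.

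Lower glycolysis, which recovers ATP, held the most abundant transcripts of the module. Gapdh, for the dehydrogenase that opens it, was at 2659 RPKM in the Set1a siRNA library and 2199 RPKM in the control siRNA library, a ratio of 1.21 (1.19 to 1.23), and it made up 31.8% and 31.0% of the summed glycolytic RPKM in the same order. Pkm, for pyruvate kinase, was at 1301 RPKM in the Set1a siRNA library and 1159 RPKM in the control siRNA library, a ratio of 1.12 (1.099 to 1.14). Eno1, the main enolase gene, was at 1059 RPKM in the Set1a siRNA library and 893 RPKM in the control siRNA library, a ratio of 1.19 (1.16 to 1.22). Gapdh is often used as a constant reference transcript. In these libraries 1575 of 11802 genes (13.3%) had a higher fold than Gapdh. Pgk1, for phosphoglycerate kinase, had a ratio of 1.12 (1.08 to 1.17) and Pgam1, for phosphoglycerate mutase, of 1.16 (1.12 to 1.21). Eno3, the muscle enolase, was at 4.11 RPKM in the Set1a siRNA library and 4.49 RPKM in the control siRNA library, and Eno2, the neuronal enolase, at 1.24 RPKM and 1.26 RPKM in the same order. Both intervals included 1.

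The lactate dehydrogenase genes differed from each other. Ldha, whose subunit favours conversion of pyruvate to lactate, was at 626 RPKM in the Set1a siRNA library and 468 RPKM in the control siRNA library, a ratio of 1.34 (1.29 to 1.39). Ldhb, whose subunit favours the opposite direction, was at 116 RPKM in the Set1a siRNA library and 119 RPKM in the control siRNA library, a ratio of 0.972 (0.890 to 1.06). The Ldha level was 5.39 times the Ldhb level in the Set1a siRNA library and 3.91 times in the control siRNA library, a quotient of 1.38 (1.2502 to 1.52).

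Of the 3 kinases above the floor that steer glycolytic flux, 0 passed the rule, against 10.4% of all genes higher and 8.14% lower. Pdk1, which inhibits pyruvate dehydrogenase and is a well-known HIF target, was at 45.2 RPKM in the Set1a siRNA library and 43.6 RPKM in the control siRNA library, a ratio of 1.04 (0.965 to 1.11). Its relative Pdk3 was at 8.72 RPKM in the Set1a siRNA library and 7.21 RPKM in the control siRNA library. Pfkfb3, for an enzyme that makes the allosteric activator of phosphofructokinase, was at 5.92 RPKM in the Set1a siRNA library and 5.06 RPKM in the control siRNA library. The intervals of all 3 included 1. Pfkfb4 stayed below the floor, at 0.741 RPKM in the Set1a siRNA library and 0.715 RPKM in the control siRNA library, with 17 reads in each.

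Summed over the 26 glycolytic genes, the level was 8364 RPKM in the Set1a siRNA library and 7088 RPKM in the control siRNA library, a ratio of 1.18. This was 2.21% of the RPKM of all genes in the Set1a siRNA library and 1.86% in the control siRNA library. In GENCODE M21, 13 of the 37 genes have transcripts of other genes that are at least 90% identical to their own over 50% or more of the shorter one. As it is not stated where multiply mapping reads went, the values of all 13 genes are uncertain. For Gapdh, Eno1, Aldoa and Ldha some of these near-identical genes are also in the deposited tables. For Pgk1 and Pgam1 the closest ones are not listed and are 100% identical where aligned, and for Pkm 98.4%. Eno1b, 99.5% identical to Eno1 where aligned, was at 500.03 RPKM in the Set1a siRNA library and 426 RPKM in the control siRNA library, and 8 such genes were listed for Gapdh. Without Gapdh, Eno1, Aldoa and Ldha the summed level was 3426 RPKM in the Set1a siRNA library and 2993 RPKM in the control siRNA library, a ratio of 1.14. This sum still held other genes with near-identical transcripts, Pkm, Pgk1 and Pgam1 among them.

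**Figure D2:**
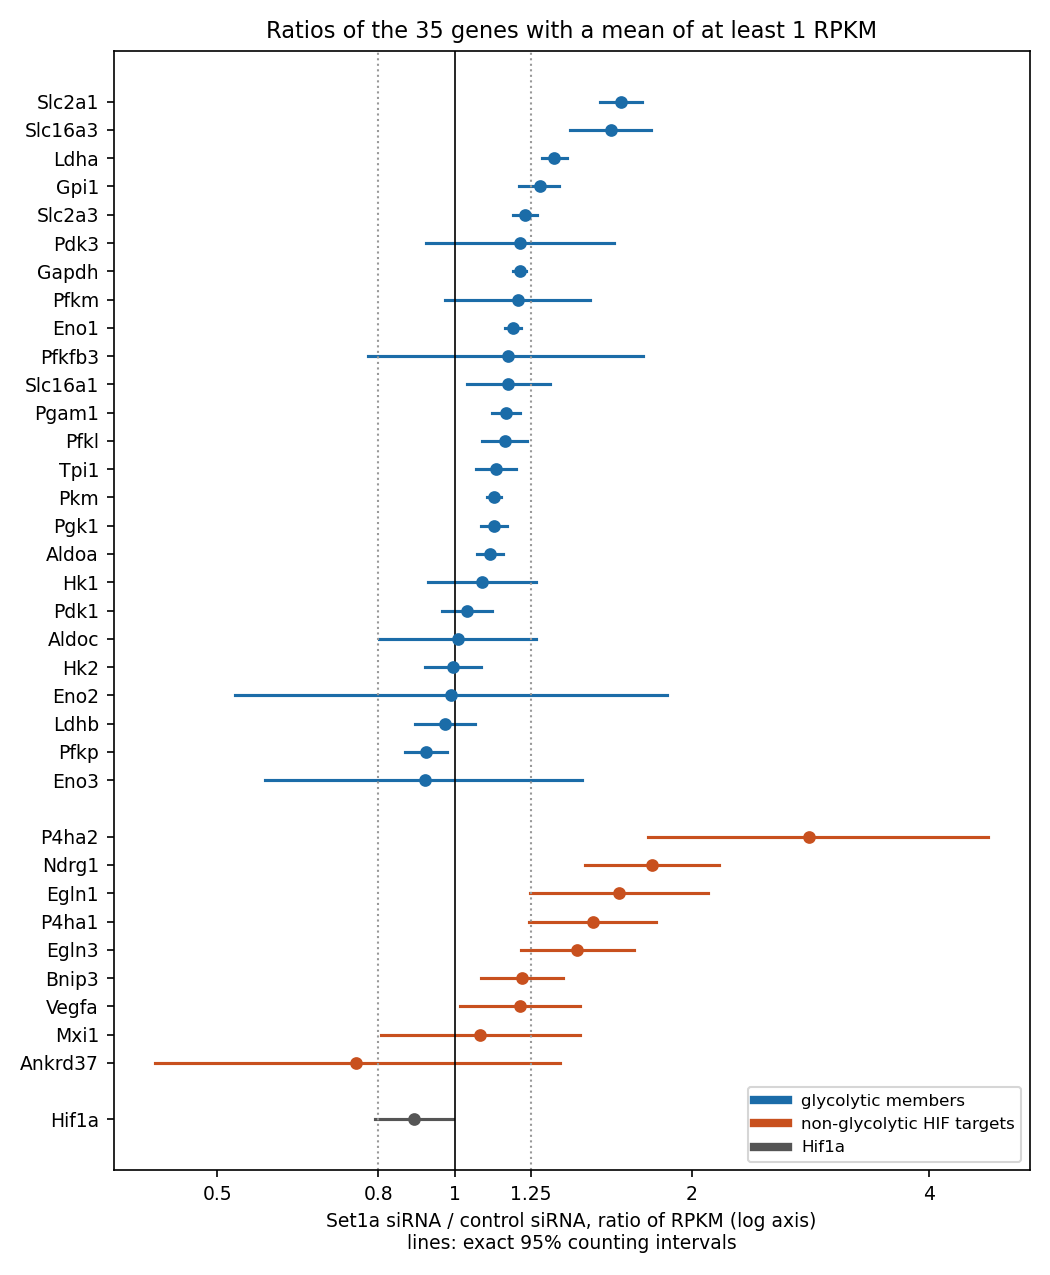
Ratio of RPKM, Set1a siRNA over control siRNA, on a log axis for the 35 genes above the floor, with exact 95% counting intervals as lines and dotted lines at the edges of the size rule. Slc2a1, Slc16a3, Ldha and Gpi1 lead the glycolytic genes, and P4ha2, Ndrg1, Egln1, P4ha1 and Egln3 lead the HIF targets outside glycolysis.

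The HIF targets outside glycolysis with the widest differences encode hydroxylases that use oxygen and 2-oxoglutarate, and Ndrg1. P4ha2 and P4ha1 encode catalytic subunits of collagen prolyl 4-hydroxylase, which modifies collagen chains in the endoplasmic reticulum so that the triple helix is stable. P4ha2 was at 4.64 RPKM in the Set1a siRNA library and 1.64 RPKM in the control siRNA library, from 66 and 24 reads in the same order. Its ratio of 2.82 (1.76 to 4.75) was the highest of the module, and 81 of 11802 genes (0.686%) had a higher fold. Its log2 fold of 1.09 with 1 RPKM added was 0.54 with 5 RPKM added, where Slc2a1 was at 0.67, Ndrg1 at 0.58 and Slc16a3 at 0.58. P4ha1, the more abundant subunit gene, was at 11.1 RPKM in the Set1a siRNA library and 7.43 RPKM in the control siRNA library, a ratio of 1.498 (1.24 to 1.80). The level of P4ha2 relative to P4ha1 was 0.417 in the Set1a siRNA library and 0.221 in the control siRNA library, a quotient of 1.88 (1.13 to 3.29).

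Egln1 and Egln3 encode the prolyl hydroxylases PHD2 and PHD3, which mark HIF alpha subunits for destruction and are themselves HIF targets. Egln1 was at 6.76 RPKM in the Set1a siRNA library and 4.18 RPKM in the control siRNA library, a ratio of 1.62 (1.248 to 2.10). Egln3 was at 20.7 RPKM in the Set1a siRNA library and 14.5 RPKM in the control siRNA library, a ratio of 1.43 (1.22 to 1.69). The balance of Egln3 to Egln1 had a quotient of 0.884 (0.650 to 1.21), an interval that included 1. Egln2, a prolyl hydroxylase gene outside the 37, was at 18.8 RPKM in the Set1a siRNA library and 20.2 RPKM in the control siRNA library, and its interval of 0.784 to 1.11 included 1. Its values are given because they were seen to lie apart from those of its relatives.

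Ndrg1, a stress-responsive gene of differentiation and lipid handling, was at 15.4 RPKM in the Set1a siRNA library and 8.63 RPKM in the control siRNA library. Its ratio was 1.78 (1.46 to 2.17), and 158 of 11802 genes (1.34%) had a higher fold. Bnip3, a mitochondrial receptor for mitophagy, was at 53.4 RPKM in the Set1a siRNA library and 43.9 RPKM in the control siRNA library, a ratio of 1.22 (1.08 to 1.37). Vegfa, the growth factor for blood vessels, was at 12.8 RPKM in the Set1a siRNA library and 10.6 RPKM in the control siRNA library, a ratio of 1.21 (1.02 to 1.44). Both lay above 1 but short of the rule. Genes annotated on the opposite strand overlap 28.7% of the Bnip3 transcript and up to 14.5% of the Ndrg1 transcript, and their reads cannot be told apart.

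The remaining targets, Mxi1, Ankrd37 and Car9, had wide intervals that included 1, so whether they moved with the others cannot be told. Mxi1, a repressor that opposes Myc, was at 6.67 RPKM in the Set1a siRNA library and 6.20 RPKM in the control siRNA library, with an interval of 0.807 to 1.44. Ankrd37, a small ankyrin repeat gene, was at 3.62 RPKM in the Set1a siRNA library and 4.82 RPKM in the control siRNA library, from 22 and 30 reads in the same order. It was the member past the rule in the lower direction, but its ratio of 0.751 had an interval of 0.417 to 1.36, and the antisense gene Lrp2bp overlaps 20.1% of its transcript. Car9, for carbonic anhydrase IX and often used as a hypoxia marker, had 4 reads in the Set1a siRNA library and 3 reads in the control siRNA library, too few for a comparison.

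**Figure D3:**
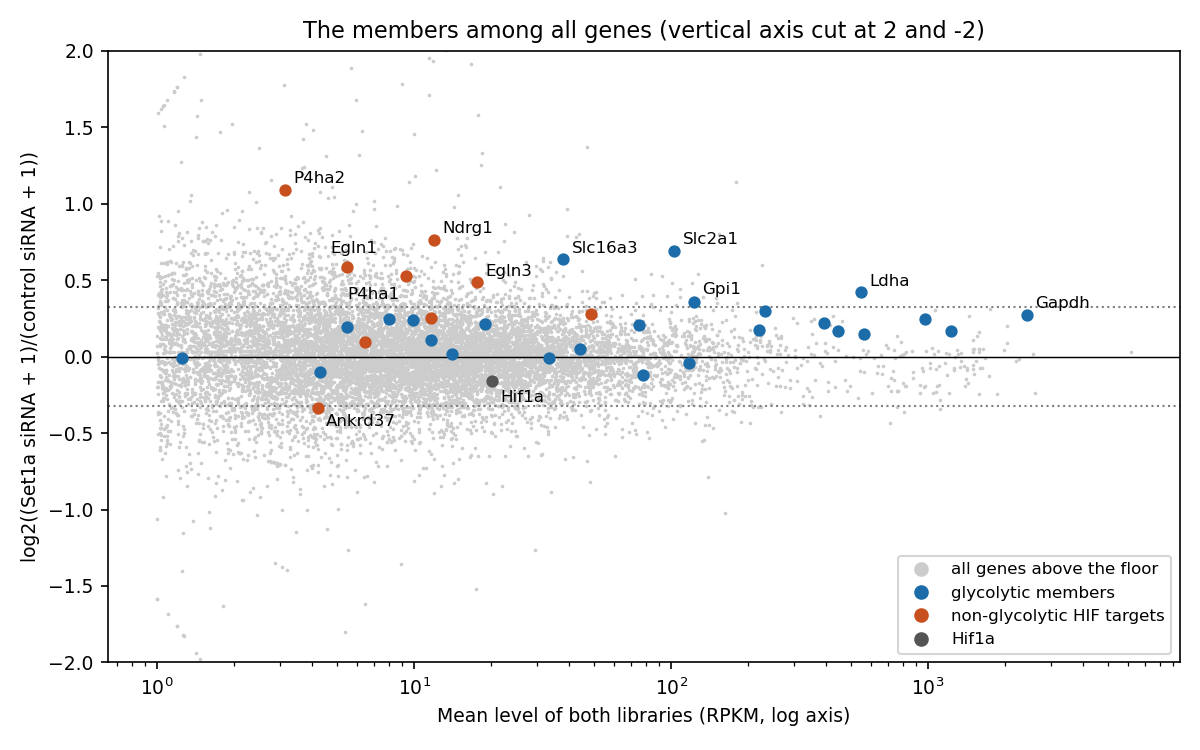
log2((Set1a siRNA + 1)/(control siRNA + 1)) against the mean RPKM of both libraries on a log axis, for all genes above the floor in grey and for the 35 members in colour, with dotted lines at the edges of the size rule. The members lie mostly above 0, and P4ha2, Ndrg1, Slc2a1 and Slc16a3 sit near the upper edge of the cloud at their levels.

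Promoter windows of 6 genes past the rule are shown because HIF binds sites with the core ACGTG or GCGTG. The windows run from 250 bases before to 50 bases after an annotated start, from RefSeq on GRCm38.p6, another build than the mm9 named for the deposited values. Capitals mark each ACGTG or GCGTG on either strand, so that CACGT and CACGC are the same cores read on the opposite strand. P4ha2 lies at chr11:54100674-54100973 (plus strand), P4ha1 at chr10:59323046-59323345 (plus strand), Egln1 at chr8:124949205-124949504 (minus strand), Egln3 at chr12:54203825-54204124 (minus strand), Slc2a1 at chr4:119108495-119108794 (plus strand) and Slc16a3 at chr11:120948817-120949116 (plus strand).
P4ha2: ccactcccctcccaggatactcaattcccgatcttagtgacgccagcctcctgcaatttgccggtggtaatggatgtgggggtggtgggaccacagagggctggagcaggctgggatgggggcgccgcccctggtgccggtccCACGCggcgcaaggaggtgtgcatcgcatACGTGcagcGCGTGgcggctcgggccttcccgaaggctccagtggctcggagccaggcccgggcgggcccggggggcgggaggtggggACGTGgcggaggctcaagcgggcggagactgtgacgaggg
P4ha1: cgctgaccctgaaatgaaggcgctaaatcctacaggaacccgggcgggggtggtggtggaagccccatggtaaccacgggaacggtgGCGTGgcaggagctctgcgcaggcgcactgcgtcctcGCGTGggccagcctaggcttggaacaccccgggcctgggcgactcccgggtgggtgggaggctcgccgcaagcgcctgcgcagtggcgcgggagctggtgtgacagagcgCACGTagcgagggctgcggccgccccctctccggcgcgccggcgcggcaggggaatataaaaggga
Egln1: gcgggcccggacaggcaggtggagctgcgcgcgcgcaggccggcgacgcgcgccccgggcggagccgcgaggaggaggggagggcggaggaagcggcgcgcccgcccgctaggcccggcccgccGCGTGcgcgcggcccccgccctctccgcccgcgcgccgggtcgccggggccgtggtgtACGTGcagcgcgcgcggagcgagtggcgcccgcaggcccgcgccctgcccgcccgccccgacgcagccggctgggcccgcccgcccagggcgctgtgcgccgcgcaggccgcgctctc
Egln3: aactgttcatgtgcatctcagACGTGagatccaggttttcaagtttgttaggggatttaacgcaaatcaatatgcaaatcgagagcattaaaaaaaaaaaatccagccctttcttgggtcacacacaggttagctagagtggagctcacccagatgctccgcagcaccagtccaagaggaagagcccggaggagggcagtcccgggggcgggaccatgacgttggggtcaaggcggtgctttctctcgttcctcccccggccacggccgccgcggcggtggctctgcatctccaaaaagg
Slc2a1: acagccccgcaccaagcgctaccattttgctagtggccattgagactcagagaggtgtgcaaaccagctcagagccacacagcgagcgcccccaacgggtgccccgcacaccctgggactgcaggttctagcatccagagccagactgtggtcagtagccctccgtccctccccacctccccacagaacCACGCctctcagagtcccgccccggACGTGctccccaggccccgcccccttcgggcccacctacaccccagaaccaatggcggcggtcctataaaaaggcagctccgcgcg
Slc16a3: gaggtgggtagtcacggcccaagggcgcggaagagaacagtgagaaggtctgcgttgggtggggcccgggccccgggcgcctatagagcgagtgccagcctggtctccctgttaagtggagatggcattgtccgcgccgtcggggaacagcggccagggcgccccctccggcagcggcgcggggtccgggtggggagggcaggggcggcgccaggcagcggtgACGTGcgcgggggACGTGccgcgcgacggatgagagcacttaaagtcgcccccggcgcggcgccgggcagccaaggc
All 6 windows held ACGTG at least 1 time, but the 6 genes were picked without a fixed rule from the members past the rule. Of the others past it, Ldha and Ankrd37 held ACGTG, Gpi1 held neither core and Ndrg1 had no window. P4ha2 had 4 marked cores, of which an ACGTG and a GCGTG lie 9 bases apart from start to start, and P4ha1 had 3. Slc16a3 had 2 ACGTG cores within 13 bases of each other, just before the start, and Egln3 had 1, near the far end of the window.

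Windows were found for 35 of the 37 genes. ACGTG was present in at least 1 window of 9 of the 9 HIF targets outside glycolysis that had one, and of 15 of 25 glycolytic genes (60%). Of all genes above the floor with a window, 29.9% held it, and of all genes with a window 21.8%. The HIF targets were listed as known targets of factors that bind this core, so their share describes the list and not the siRNA. Whether HIF bound these windows in either library was not tested. GCGTG was found for 6 of the 9 HIF targets (66.7%), for 17 of the 25 glycolytic genes (68%) and for 56.7% of the genes above the floor. The E-box CACGTG, which Myc and its partners bind and which contains ACGTG on both strands, was found for 1 of the 9 HIF targets, for 4 of the 25 glycolytic genes and for 12.2% of the genes above the floor. The windows were CpG-rich in all 3 sets, with medians of 7.5 CpG per 100 bases for the HIF targets, 6.67 for the glycolytic genes and 6.67 for the genes above the floor. Genes with and without a core lay on either side: Ankrd37 had 2 ACGTG cores and a ratio of 0.751, Hk2 had 2 and a ratio of 0.995, and Gpi1 had neither core in its window and a ratio of 1.28.

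The rest of the pathway was read through lists of related genes. Of 31 other HIF targets above the floor, 7 (22.6%) passed the rule as higher and 1 (3.23%) as lower, against 10.4% and 8.14% of all genes, with a median log2 fold of 0.11. Plod2, for a lysyl hydroxylase of collagen, was at 29.6 RPKM in the Set1a siRNA library and 15.7 RPKM in the control siRNA library, a ratio of 1.88 (1.66 to 2.14). Bhlhe40, a transcriptional repressor, was at 31.4 RPKM in the Set1a siRNA library and 17.4 RPKM in the control siRNA library, a ratio of 1.80 (1.58 to 2.06). Anxa2, for a calcium-dependent membrane-binding protein, had a ratio of 1.56 (1.33 to 1.83) and Ddit4, for an inhibitor of mTORC1 signalling, of 1.49 (1.29 to 1.71). Stc2, for a secreted glycoprotein, was lower, at 9.47 RPKM in the Set1a siRNA library and 14.2 RPKM in the control siRNA library, a ratio of 0.669 (0.564 to 0.787). The classical targets Bnip3l and Kdm3a, chosen after their values were seen, had intervals that included 1, and 23 of the 31 passed in neither direction.

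Of 13 HIF regulators above the floor, the 2 past the rule (15.4%, against 10.4% of all genes higher) were Egln1 and Egln3, and the median log2 fold was -0.01. Epas1, for the alpha subunit HIF2, was at 13.6 RPKM in the Set1a siRNA library and 13.0 RPKM in the control siRNA library, and Arnt at 18.6 RPKM and 19.1 RPKM in the same order. Vhl was at 10.8 RPKM in the Set1a siRNA library and 12.3 RPKM in the control siRNA library. The intervals of these 3 included 1. Rbx1, for a subunit of the ubiquitin ligase that contains the von Hippel-Lindau protein, was at 33.6 RPKM in the Set1a siRNA library and 41.3 RPKM in the control siRNA library, a ratio of 0.813 (0.706 to 0.934), short of the rule. These 4 genes were chosen after their values were seen. Among 11 regulators of glycolytic genes above the floor, 1 passed the rule as higher and 1 as lower (9.09% each), against 10.4% and 8.14% of all genes. The higher one, Myc, was at 11.8 RPKM in the Set1a siRNA library and 8.09 RPKM in the control siRNA library, a ratio of 1.46 (1.12 to 1.91). Its more abundant relative Mycn, chosen after its values were seen, lay on the other side, short of the rule. Mycn was at 44.6 RPKM in the Set1a siRNA library and 51.9 RPKM in the control siRNA library, a ratio of 0.860 (0.780 to 0.947). Txnip, which restrains glucose uptake and whose RNA depends on glucose, was at 122 RPKM in the Set1a siRNA library and 169.6 RPKM in the control siRNA library, a ratio of 0.722 (0.683 to 0.762). The median of that list was -0.02.

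The lists for routes that branch from glycolysis were mixed, and their counts stand against 10.4% of all genes higher and 8.14% lower. In the pentose phosphate pathway, 1 of 8 genes passed the rule as higher and 0 as lower, with a median log2 fold of 0.10. In the tricarboxylic acid cycle these counts were 1 and 0 of 20, with a median of 0.01, and Suclg1, for a subunit of succinyl-CoA ligase, had a ratio of 1.32 (1.11 to 1.56). Among 13 genes of pyruvate entry into mitochondria, 1 was higher and 2 lower, with a median of 0.06. The carrier subunits Mpc1 and Mpc2 lay on opposite sides, with ratios of 1.28 (0.984 to 1.68) and 0.754 (0.476 to 1.15), and both intervals included 1. Of 21 other glycolytic isoforms, 7 were above the floor, 2 of them higher and 1 lower, with a median of 0.18, close to that of the glycolytic members. Of 6 gluconeogenesis genes, 3 were above the floor, 1 higher and 1 lower, with a median of 0.28. The lower one was Pck2, for the mitochondrial phosphoenolpyruvate carboxykinase, with a ratio of 0.654 (0.576 to 0.741). The others, chosen after their values were seen, were G6pc3, for a glucose 6-phosphatase, with a ratio of 1.47 (0.905 to 2.37), and Fbp2, for a fructose bisphosphatase, with an interval of 0.855 to 1.87.

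**Figure D4:**
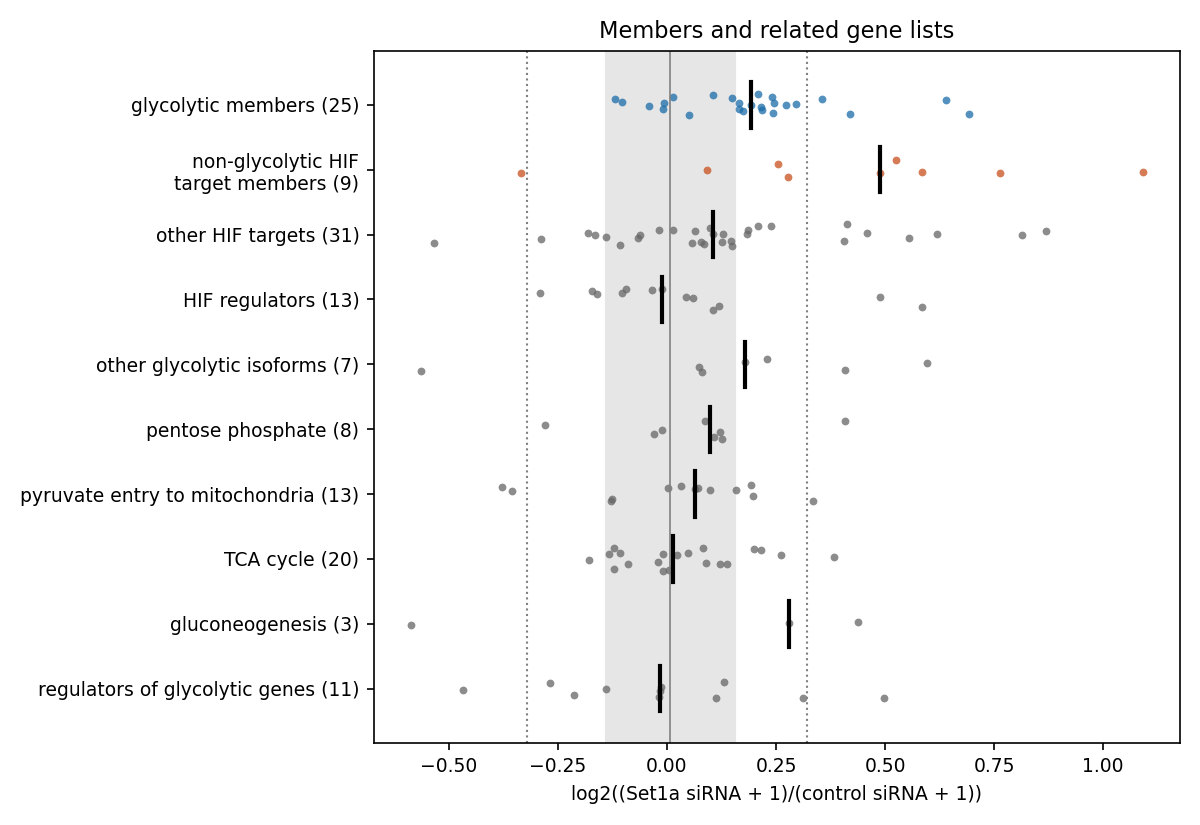
log2((Set1a siRNA + 1)/(control siRNA + 1)) of each gene above the floor in the 2 member classes and 8 related lists, with the number of genes in parentheses, black bars at each median, a grey band from the lower to the upper quartile of all genes and dotted lines at the edges of the size rule. The HIF targets outside glycolysis have a median of 0.49 and the glycolytic members of 0.19, and the tricarboxylic acid cycle genes cluster around 0.01.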

How the data were processed

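The deposited files list 1 value for each of 28430 RefSeq transcripts per library, with no header; that these deposited values are RPKM was inferred from low values, which fell on whole reads once multiplied by transcript length. TopHat2 2.0.12, TopHat, SAMtools 0.1.16 and CASAVA appear, with build mm9, per the submitters' processing notes, without their roles. How reads were counted, whether strand was used and where multiply mapping reads went is not stated there. Symbols came from RefSeq GRCm38.p6 and GENCODE M21 (27957 transcripts, 98.3%), and lengths and GC content from GENCODE M21. Depth was the value at which transcripts of 1 to 5 reads lay nearest to whole reads; the share within 0.1 of a whole number was 73.6% in the Set1a siRNA library and 74.9% in the control siRNA library, and 20% would be so at random. Read numbers and intervals are therefore approximate. Fold changes were taken on the log2 scale after 1 RPKM was added to each deposited value. Quotients of 2 level ratios have exact conditional intervals. The members and lists were chosen with earlier results of these data known, so their counts and medians describe them and are no tests. Related lists were named by at most 4 genes per direction past the size rule at a mean of at least 5 RPKM, farthest first. 1 list entry, Mondoa, was not matched. Near-identical transcripts were sought with BLAST 2.17.0 at 90% identity over 50% of the shorter transcript. Scripts ran in Python 3.11.15 with pandas 2.3.3 and scipy 1.17.1 and were tested on simulated reads. Alternatives varied the pseudocount, floor, scaling, transcript choice, fold rule, GC and length trend and read minimum.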

Additional observations from a re-analysis of the deposited data

How the results depend on the processing

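The median log2 fold stayed positive under every alternative run, from 0.17 to 0.21 for the glycolytic genes and from 0.36 to 0.52 for the HIF targets outside glycolysis. Counts depended on the fold rule and the floor. At 1.5-fold, 2 glycolytic genes and 2 HIF targets were higher and 0 HIF targets lower, against 2.77% of all genes higher. At 2-fold, 0 glycolytic genes and 1 HIF target were higher and 0 HIF targets lower, against 0.771% of all genes higher. The lower HIF target, Ankrd37, was past the rule in the main setting and dropped out, leaving 0, with a pseudocount of 5 RPKM, a floor of 5 RPKM or the GC and length trend removed. The floor of 5 RPKM left 4 of 7 HIF targets higher, against 6.62% of all genes, as P4ha2 dropped out. With a pseudocount of 5 RPKM the log2 fold of P4ha2 was 0.54 in place of 1.09. Removing the trend also left 3 of 25 glycolytic genes higher, without Gpi1, and 6 of 9 HIF targets, with Bnip3, against 9.48% of all genes. It lowered the log2 fold of Gapdh from 0.274 to 0.235, of Eno1 from 0.246 to 0.177 and of Pkm from 0.166 to 0.087. These 3 abundant genes, of 35 members, moved further than their counting intervals allow, so those narrow intervals do not cover such a trend. Nor do the intervals of the quotients of 2 level ratios. With the trend removed, the log2 fold of Slc16a3 went from 0.64 to 0.55, of Slc16a1 from 0.21 to 0.24 and of Pfkl from 0.21 to 0.13. Pfkp stayed at -0.12, and Ldha and Ldhb at 0.42 and -0.04. An alternative chosen after seeing the data left out the 13 members that have near-identical transcripts of other genes, Gpi1 and Ldha among them. In it, 2 of 14 glycolytic genes were higher and 0 lower, against 10.4% and 8.14% of all genes. Of the 7 HIF targets left, 5 were higher and 1 lower. The median log2 folds were 0.20 for the glycolytic genes and 0.52 for the HIF targets. No member past the rule changed direction. No paired analysis was possible because there was a single library in each group. Depth limits P4ha2, Ankrd37, Car9, Eno2 and Pfkfb4 most, which rest on few reads.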
